A study of Mus musculus with 9 samples.

Results

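The 10 genes described here are 4 Notch receptors (*Notch1*, *Notch2*, *Notch3* and *Notch4*), 3 of their ligands (*Jag1*, *Jag2* and *Dll4*) and the 3 HEY genes (*Hey1*, *Hey2* and *Heyl*). They were taken by gene symbol from a table of 31274 entries that covers the whole uterus of 9 mice, and all 10 were found and had enough signal to be tested. The mice were females of strain C57BL/6, 6 to 10 weeks old, sampled on pseudopregnancy day 4.5 after mating with vasectomized males, so that the uterus reached the receptive phase without embryos. The 4 control mice were Wnk1f/f, with loxP sites around exon 2 of the gene for the kinase WNK1. The 5 Wnk1d/d mice carried the same floxed alleles together with Cre driven from the progesterone receptor gene (PGR-Cre), and the labels name no Cre in the controls. PGR-Cre also recombines in the ovary and the pituitary, and the study notes that endothelial and immune cells do not express the receptor and so keep WNK1. Each mouse gave 1 library.

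Notch receptors are cut in steps after they bind a ligand on a neighbouring cell, first by an ADAM protease and then by gamma-secretase. The freed intracellular part joins the DNA-binding protein RBPJ and a Mastermind coactivator, and together they switch on genes of the HES and HEY repressor families. In blood vessels, DLL4, NOTCH1 and NOTCH4 act in the endothelium, NOTCH3 and HEYL are typical of the mural cells around it, and HEY2 is an arterial regulator. In the uterus, Notch receptors are also present in the stroma, where NOTCH1 takes part in decidualization.

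Wnk1d/d uteri held more *Hey1* transcript and less *Hey2*, *Heyl* and *Notch4* than the controls, and for each of these 4 genes no library of one genotype reached the range of the other. *Hey1* rose 1.79 times, whereas *Hey2*, *Heyl* and *Notch4* fell to 0.583, 0.588 and 0.579 of their control means. *Notch3* and *Dll4* fell by less, and *Notch1*, *Notch2*, *Jag1* and *Jag2* did not pass the test. All values are FPKM (fragment counts scaled to exon length and to the size of the library), which the authors computed and which allow levels to be compared between genes. Genotypes were compared on log2(FPKM + 1) with limma, adjusted over 14728 tested genes by the Benjamini-Hochberg method, and a gene was called when its adjusted p was under 0.05 and its genotype means differed at least 1.5 times, the thresholds of the study. By this rule 4 of the 10 genes were called, 1 higher and 3 lower, beside 10.3% of all genes tested (5.09% higher and 5.18% lower). An adjusted p under 0.05 alone was reached by 6 of the 10, against 22.1% of all genes, and ranges that did not overlap by 4 of the 10, against 19.9%. The fold change on this scale understates the change of genes with low FPKM. In whole tissue, fewer cells of a type, less RNA per cell and a larger part of the library taken by other tissue cannot be told apart.

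The targeted gene and the tissue were checked first. *Wnk1* was lower in every Wnk1d/d library, at 29.9 to 33.9 FPKM against 43.4 to 47.3 FPKM in the controls, and the FPKM covers the whole gene and not only the deleted exon. Markers of the uterus, of its epithelium and of its stroma were present in all 9 libraries. The summed level of 14 endothelial markers was 803 to 875 FPKM in the controls and 344 to 675 FPKM in Wnk1d/d uteri, lowest in Wnk1d/d replicate 1, and 10 of the 14 were called lower. For 6 mural cell markers the sums were 141 to 173 FPKM and 97.6 to 120 FPKM, and for 6 smooth muscle markers 2695 to 5808 FPKM and 6013 to 11222 FPKM, with all 6 called higher. Liver markers summed to 157 FPKM in Wnk1f/f replicate 4 and to 3.23 to 9.27 FPKM in the other libraries, and without that replicate the same number of the 10 genes, 4, was called. In Wnk1d/d replicate 4 a single entry took 70.3% of the summed FPKM, while the median log2(FPKM + 1) of the tested genes stayed between 3.80 and 3.82 in all libraries.

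**Figure D1:**
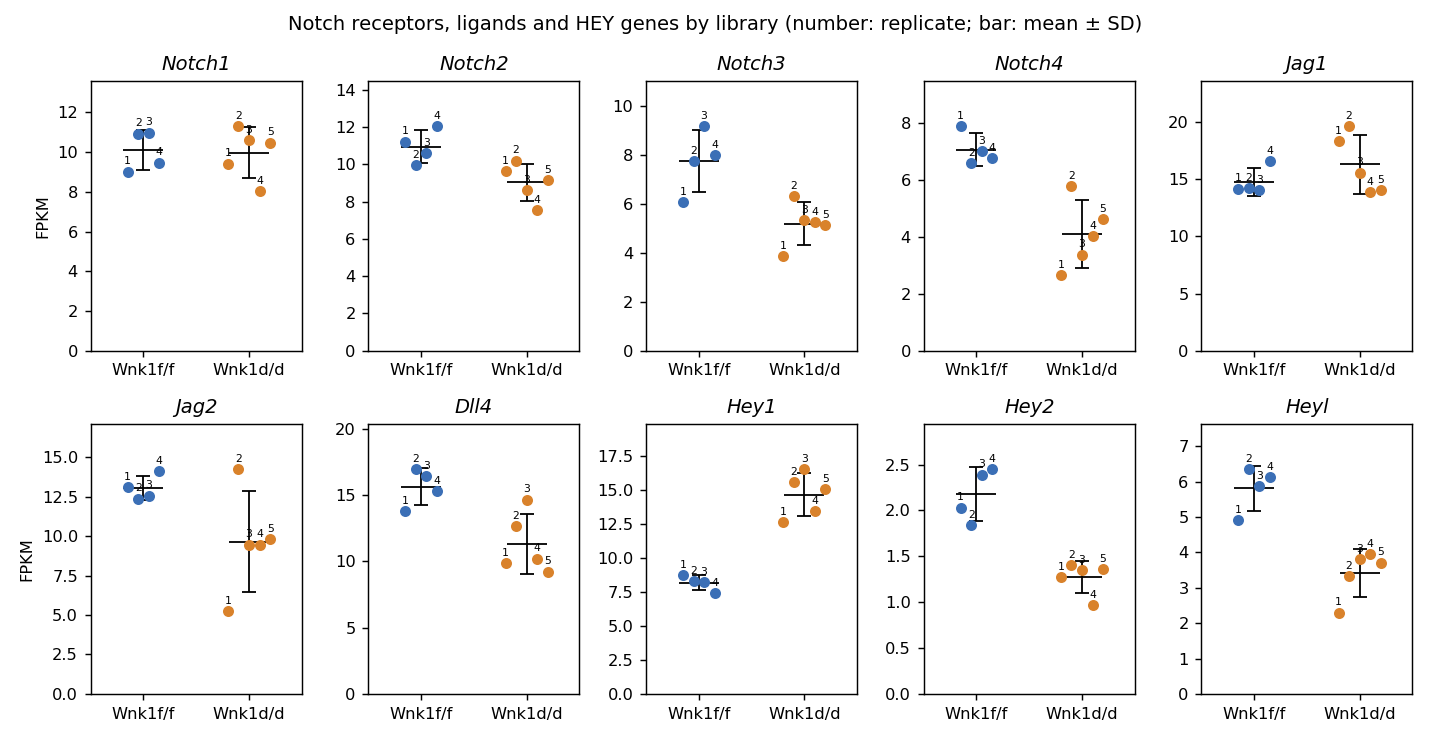
FPKM (y axis, from 0) of each of the 10 genes in the 4 Wnk1f/f and 5 Wnk1d/d libraries, with the replicate number at each point and the mean ± SD as bars. The genotypes separate completely for *Notch4*, *Hey1*, *Hey2* and *Heyl*, of which only *Hey1* is higher in Wnk1d/d.

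Among the receptors, *Notch4* showed the largest difference. *Notch4* (ENSMUSG00000015468.14, mm10 chr17:34564268-34588503, plus strand, GENCODE M21) encodes a receptor found mostly on endothelium. It measured 7.91, 6.61, 7.03 and 6.77 FPKM in Wnk1f/f replicates 1 to 4 and 2.66, 5.78, 3.38, 4.04 and 4.62 FPKM in Wnk1d/d replicates 1 to 5. Every Wnk1d/d library lay below every control, and Wnk1d/d replicate 1, which also had the lowest summed endothelial markers, was the lowest. The means were 7.08 ± 0.580 FPKM (SD, n = 4) and 4.10 ± 1.19 FPKM (SD, n = 5), a log2 fold change of -0.69 (standard error, SE, 0.16, limma adjusted p = 0.017). The call held in 18 of 18 other fits tried at the same thresholds without pairing the mice, with adjusted p values from 0.0050 to 0.045.

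*Notch3* (ENSMUSG00000038146.8, chr17:32120820-32166852, minus strand) encodes the receptor of mural cells and vascular smooth muscle. Its values were 6.07, 7.76, 9.18 and 7.98 FPKM in Wnk1f/f replicates 1 to 4 and 3.85, 6.33, 5.33, 5.26 and 5.14 FPKM in Wnk1d/d replicates 1 to 5. The ranges met in a single place, where Wnk1d/d replicate 2 exceeded Wnk1f/f replicate 1. The log2 fold change was -0.50 (SE 0.13, limma adjusted p = 0.028), and the ratio of means, 0.669, just missed the 1.5-fold criterion. The adjusted p rose above 0.05 in 6 of the 9 fits that left out 1 library, namely Wnk1f/f replicate 2 (0.059), 3 (0.066) or 4 (0.073) and Wnk1d/d replicate 3 (0.058), 4 (0.051) or 5 (0.058). On the opposite strand an annotated antisense gene shares 488 of the 8089 exonic bases of *Notch3*, and no source used here says whether fragments were assigned by strand.

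*Notch1* (ENSMUSG00000026923.15, chr2:26457903-26516663, minus strand) and *Notch2* (ENSMUSG00000027878.11, chr3:98013527-98150361, plus strand) encode the more widely expressed receptors. *Notch1* was 9.02, 10.94, 10.99 and 9.48 FPKM in the controls and 9.43, 11.32, 10.62, 8.03 and 10.48 FPKM in Wnk1d/d uteri, so that the genotypes lay over each other. Its log2 fold change was -0.02 (95% interval -0.25 to 0.21, limma adjusted p = 0.90), which leaves out a change of the size seen for *Notch4*. *Notch2* was 11.22, 9.95, 10.59 and 12.06 FPKM in the controls and 9.63, 10.20, 8.63, 7.56 and 9.16 FPKM in Wnk1d/d uteri. Only Wnk1d/d replicate 2 entered the control range, yet the difference was small and did not pass the test, with a log2 fold change of -0.26 (SE 0.090, limma adjusted p = 0.069). The adjusted p was 0.037 without Wnk1d/d replicate 2 and also 0.037 with library weights. Annotated noncoding genes on the opposite strand overlap exons of *Notch1* (414 and 1068 of 14232 bases). An annotated gene of unconfirmed type on the same strand overlaps exons of *Notch2* (541 of 10782 bases). Fragments from these stretches could be split or shared.

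The make-up of the receptor pool shifted accordingly. The 4 receptors summed to 34.2 to 37.8 FPKM in the controls and 24.9 to 33.6 FPKM in Wnk1d/d uteri. *Notch1* made up 28.1% ± 2.34 (SD, n = 4) of that sum in the controls and 35.3% ± 2.33 (SD, n = 5) in Wnk1d/d uteri, without overlap (exact two-sided permutation test, p = 0.0079, the smallest p that 4 against 5 libraries can give). The share of *Notch4* went from 19.8% ± 2.22 to 14.3% ± 2.92 (exact permutation p = 0.016), and without Wnk1f/f replicate 1 the exact permutation p was 0.071. The shares of *Notch2* (30.6% and 32.1%, exact permutation p = 0.53) and *Notch3* (21.5% and 18.3%, exact permutation p = 0.10) did not differ beyond their spread. A share rises for a gene that holds its level while the others decrease, and *Notch1* itself stayed near 10 FPKM in both genotypes.

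**Figure D2:**
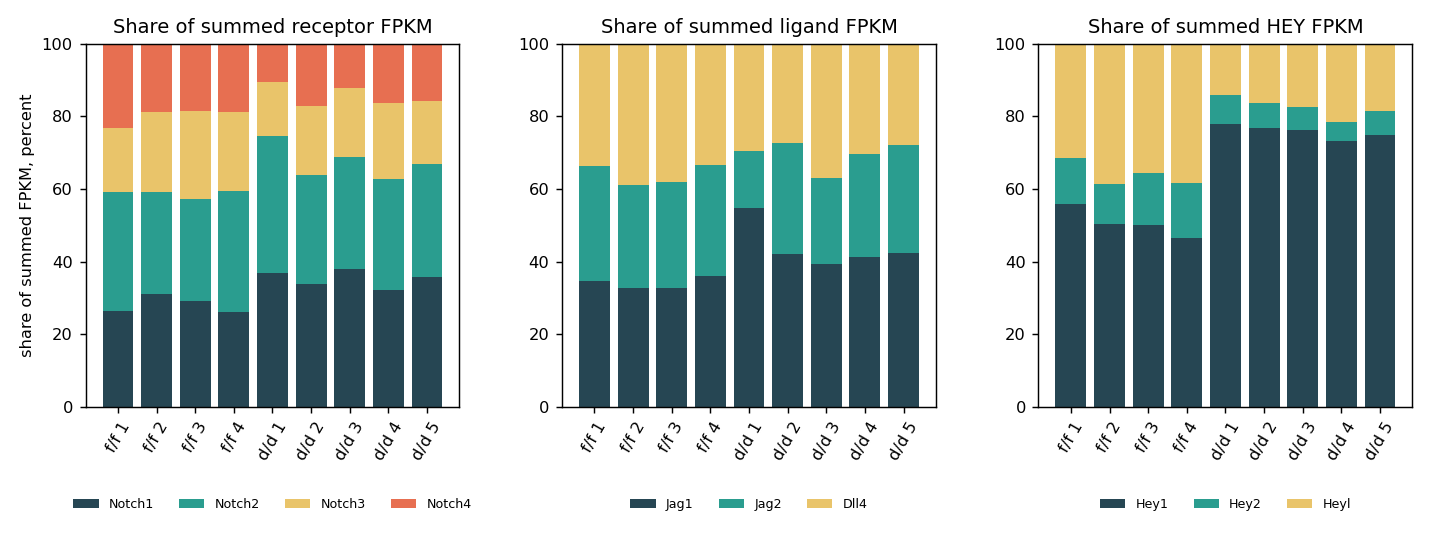
Percentage of the summed FPKM (y axis) that each gene contributes within the receptors, the ligands and the HEY genes, as stacked bars for each library (f/f, Wnk1f/f; d/d, Wnk1d/d; number, replicate). *Hey1* fills 46.4% to 55.7% of the HEY bars in the controls and 73.3% to 78.0% in Wnk1d/d uteri.

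Of the ligands, *Dll4* fell. *Dll4* (ENSMUSG00000027314.6, chr2:119325784-119335962, plus strand), the ligand that marks endothelial tip and arterial cells, measured 13.81, 16.97, 16.45 and 15.34 FPKM in the controls and 9.89, 12.68, 14.67, 10.21 and 9.24 FPKM in Wnk1d/d uteri. Wnk1d/d replicate 3 alone reached into the control range. The means were 15.6 ± 1.40 FPKM (SD, n = 4) and 11.3 ± 2.27 FPKM (SD, n = 5), a log2 fold change of -0.45 (SE 0.13, limma adjusted p = 0.036), below the 1.5-fold criterion. The adjusted p rose above 0.05 without Wnk1f/f replicate 2 (0.082), 3 (0.076) or 4 (0.078), without Wnk1d/d replicate 1 (0.075), 4 (0.075) or 5 (0.076), and when genes of low FPKM were kept (0.054). An annotated noncoding gene on the opposite strand shares 214 of its 3852 exonic bases.

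*Jag2* (ENSMUSG00000002799.6, chr12:112907819-112929776, minus strand) encodes a second Jagged ligand. It varied more among Wnk1d/d mice than any other of the 10 genes, at 5.27, 14.25, 9.47, 9.47 and 9.83 FPKM in replicates 1 to 5, beside 13.12, 12.39, 12.57 and 14.14 FPKM in the controls. Wnk1d/d replicate 2 was above every control and the other 4 Wnk1d/d libraries were below every control. The log2 fold change was -0.45 (SE 0.21, limma adjusted p = 0.14). Without Wnk1d/d replicate 2 it was -0.60 (limma adjusted p = 0.032), and *Jag2* was then called.

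*Jag1* (ENSMUSG00000027276.7, chr2:137081456-137116644, minus strand), the Jagged ligand made by endothelium, smooth muscle and epithelium alike, was 14.18, 14.22, 14.08 and 16.59 FPKM in the controls and 18.33, 19.66, 15.58, 13.87 and 14.04 FPKM in Wnk1d/d uteri. The Wnk1d/d libraries spanned the control range on both sides. The log2 fold change was 0.12 (95% interval -0.12 to 0.37, limma adjusted p = 0.43). *Jag1* nevertheless made up a larger share of the 3 ligands in Wnk1d/d uteri, 44.0% ± 6.14 (SD, n = 5) against 34.0% ± 1.63 (SD, n = 4), without overlap (exact permutation p = 0.016). The shares of *Dll4* (36.0% and 30.4%, exact permutation p = 0.063) and *Jag2* (30.1% and 25.6%, exact permutation p = 0.21) did not pass 0.05.

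The 3 HEY genes, which encode basic helix-loop-helix repressors, moved in both directions. *Hey1* (ENSMUSG00000040289.8, chr3:8663359-8667256, minus strand) was 8.74, 8.31, 8.26 and 7.42 FPKM in Wnk1f/f replicates 1 to 4 and 12.64, 15.59, 16.55, 13.48 and 15.09 FPKM in Wnk1d/d replicates 1 to 5. The lowest Wnk1d/d library was well above the highest control. The means were 8.18 ± 0.552 FPKM (SD, n = 4) and 14.7 ± 1.59 FPKM (SD, n = 5), a log2 fold change of 0.77 (SE 0.086, limma adjusted p = 0.0019), and the call held in 18 of 18 other fits without pairing. The summed smooth muscle markers given above were likewise higher in every Wnk1d/d library than in any control, although 3 of the 6 markers taken singly overlapped between the genotypes, and their part in the *Hey1* result was not tested.

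*Heyl* (ENSMUSG00000032744.4, chr4:123233556-123249875, plus strand) went the other way, with 4.91, 6.35, 5.87 and 6.12 FPKM in the controls and 2.30, 3.32, 3.80, 3.95 and 3.71 FPKM in Wnk1d/d uteri. Its log2 fold change was -0.64 (SE 0.13, limma adjusted p = 0.011). *Hey2* (ENSMUSG00000019789.9, chr10:30832359-30842801, minus strand) had the lowest level of the 10 genes, 2.03, 1.84, 2.39 and 2.45 FPKM in the controls and 1.27, 1.40, 1.35, 0.97 and 1.36 FPKM in Wnk1d/d uteri, with a log2 fold change of -0.48 (SE 0.10, limma adjusted p = 0.012). Both genes separated the genotypes without overlap, and both calls held in every other fit without pairing in which the gene was tested (18 of 18 for *Heyl*, 17 of 17 for *Hey2*). Of the 6 mural cell markers, *Pdgfrb* (39.6 and 21.5 FPKM), *Abcc9* (9.26 and 5.60 FPKM) and *Higd1b* (9.89 and 6.44 FPKM) were called lower. The other 3 had an adjusted p under 0.05 without passing the 1.5-fold criterion, *Rgs5* (log2 fold change -0.42) and *Kcnj8* (-0.48) lower and *Cspg4* (0.52) higher in Wnk1d/d. The part of these markers in the results for *Heyl* and *Notch3* was not tested. Of 4 arterial endothelial markers none was called, and *Gja4* alone had an adjusted p under 0.05 (22.8 and 16.3 FPKM, limma adjusted p = 0.038). The others went in both directions without passing the test, *Gja5* lower (log2 fold change -0.29) and *Efnb2* (0.52) and *Sox17* (0.12) higher in Wnk1d/d.

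The summed level of the HEY genes was 15.7 to 16.5 FPKM in the controls and 16.2 to 21.7 FPKM in Wnk1d/d uteri, with means of 16.2 and 19.4 FPKM, and 4 of the 5 Wnk1d/d libraries were above every control. *Hey1* made up 50.6% ± 3.85 (SD, n = 4) of it in the controls and 75.8% ± 1.82 (SD, n = 5) in Wnk1d/d uteri, *Heyl* 35.9% ± 3.34 and 17.6% ± 2.68, and *Hey2* 13.5% ± 1.83 and 6.59% ± 0.941, each without overlap (exact two-sided permutation tests, p = 0.0079 each). The ratio of *Hey1* to *Heyl* was 1.78, 1.31, 1.41 and 1.21 in the controls and 5.50, 4.70, 4.36, 3.41 and 4.07 in Wnk1d/d uteri. Ratios within a library do not depend on how that library was scaled. Each HEY gene had already separated the genotypes, *Hey1* upwards and *Heyl* and *Hey2* downwards. The separation of the *Hey1* share and of the ratio of *Hey1* to *Heyl* was therefore fixed beforehand. The shares add up to the whole and are not separate tests.

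Ranked by level, the 10 genes followed a partly different order in the 2 genotypes. In the controls it ran from *Dll4* (15.6 FPKM) through *Jag1*, *Jag2*, *Notch2*, *Notch1*, *Hey1*, *Notch3*, *Notch4* and *Heyl* to *Hey2* (2.18 FPKM). Neighbours whose ranges did not overlap were *Jag2* and *Notch2*, *Notch1* and *Hey1*, *Notch4* and *Heyl*, and *Heyl* and *Hey2*, and the ranges of the other neighbours overlapped, although *Jag1* exceeded *Jag2* within each of the 4 control libraries (ratio 1.13 ± 0.040, SD, n = 4). In Wnk1d/d uteri the order was *Jag1* (16.3 FPKM), *Hey1*, *Dll4*, *Notch1*, *Jag2*, *Notch2*, *Notch3*, *Notch4*, *Heyl* and *Hey2* (1.27 FPKM). There the ranges were apart only between *Notch2* and *Notch3* and between *Heyl* and *Hey2*. *Hey1* thus stood sixth in the controls and second in Wnk1d/d uteri, above *Dll4* in 5 of 5 libraries of the latter.

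The level of the endothelial marker *Pecam1* was then set beside each gene. *Pecam1* was 89.2, 94.8, 89.8 and 96.3 FPKM in the controls and 38.7, 77.5, 53.6, 63.8 and 66.6 FPKM in Wnk1d/d uteri, and was itself called lower (-0.65 on the log2 scale, SE 0.17, limma adjusted p = 0.026). *Cdh5*, which encodes VE-cadherin, went from 87.8 to 44.5 FPKM (log2 fold change -1.01, limma adjusted p = 0.0094). As the genotypes did not overlap in *Pecam1*, no correlation over all 9 libraries was computed, since it would mix the genotype difference with the relation inside each genotype. Instead, *Pecam1* on the log2 scale was added to the limma fit. The slope is then the change of a gene in log2(FPKM + 1) for 1 such unit of *Pecam1* inside a genotype. For a gene far above 1 FPKM, a slope of 1 means that it moves in proportion to *Pecam1*. For genes of low FPKM the added 1 lowers the slope, so slopes of genes with unlike levels are not strictly comparable. With 0.1 added in its place, the slope of *Notch4* was 1.02 and not 0.84, and that of *Jag2* 1.26 and not 1.15. The controls spanned little of the *Pecam1* range, so the slopes rest mainly on the 5 Wnk1d/d libraries.

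**Figure D3:**
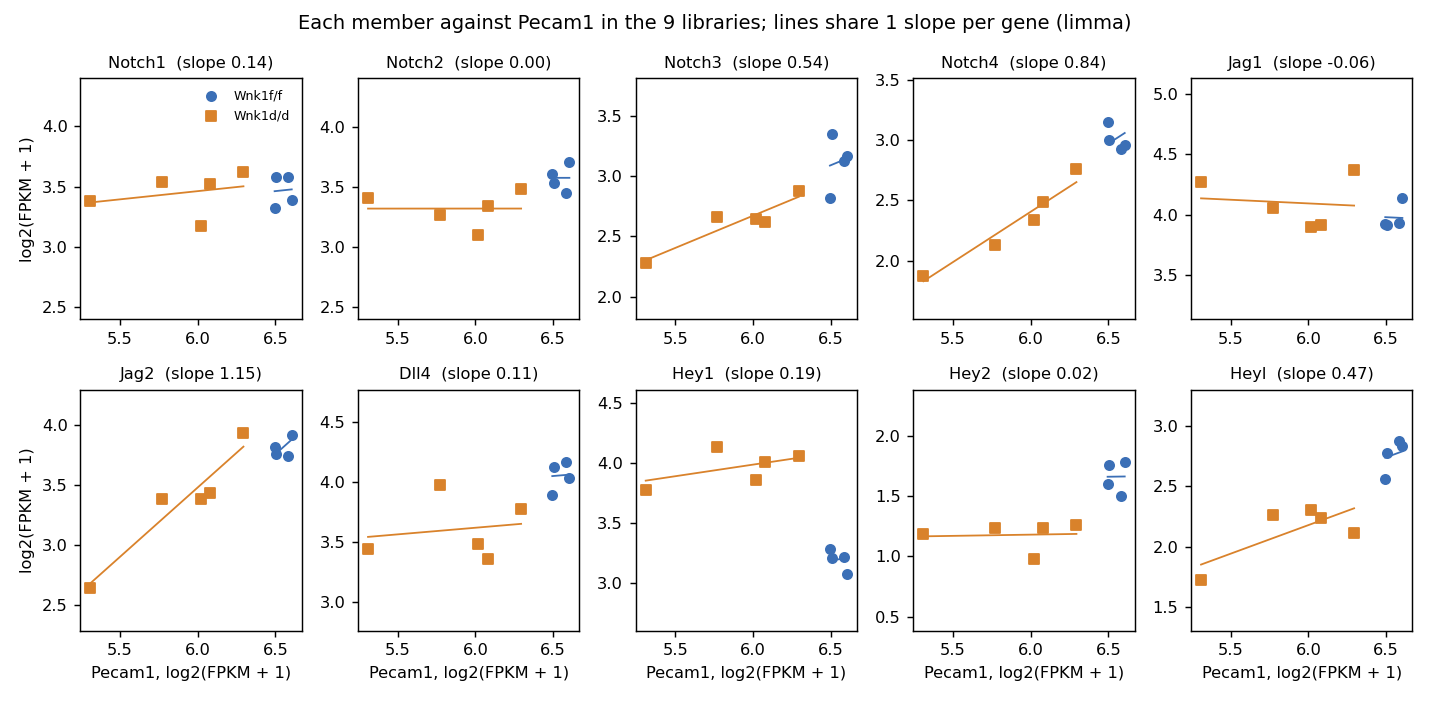
log2(FPKM + 1) of each gene (y axis, the same span in every panel) against that of *Pecam1* (x axis) in the 4 Wnk1f/f and 5 Wnk1d/d libraries, with lines from the limma fit that share 1 slope per gene. *Jag2* and *Notch4* climb along the *Pecam1* axis within Wnk1d/d (slopes 1.15 and 0.84), and *Hey1* lies above the controls in every Wnk1d/d library.

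*Jag2* and *Notch4* had the steepest slopes. That of *Jag2* was 1.15 (SE 0.17, unadjusted p = 9.1e-05, adjusted p = 0.065, limma) and that of *Notch4* 0.84 (SE 0.17, unadjusted p = 0.0010, adjusted p = 0.18, limma). Without Wnk1d/d replicate 1, the library with the least *Pecam1*, they were 0.98 and 1.05 (limma adjusted p = 0.40 and 0.38). *Notch3* followed with 0.54 (limma unadjusted p = 0.032, adjusted p = 0.55; without Wnk1d/d replicate 1 or 2 the unadjusted p was 0.37 or 0.12) and *Heyl* with 0.47 (limma unadjusted p = 0.052, adjusted p = 0.60). Without Wnk1d/d replicate 1 the slope of *Heyl* was -0.15, so its positive value rests on that library, and without Wnk1d/d replicate 2 it was 0.75.

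For the other 6 genes the slopes had unadjusted p values above 0.05. They were 0.19 for *Hey1*, 0.14 for *Notch1*, 0.11 for *Dll4*, 0.02 for *Hey2*, 0.00 for *Notch2* and -0.06 for *Jag1*, with SEs of 0.16 to 0.26. These slopes moved with single libraries: without Wnk1d/d replicate 1 they were -0.21 for *Hey1*, -0.37 for *Dll4*, 0.44 for *Notch2* and 0.62 for *Jag1*, and without Wnk1d/d replicate 2 that of *Jag1* was -0.45 (limma unadjusted p = 0.034, adjusted p = 0.59). None of the 10 slopes reached an adjusted p under 0.05, against 0.0951% of all genes, and 3 of 10 had an unadjusted p under 0.05 (limma), against 8.32% of all genes. Among the 13 endothelial markers other than *Pecam1*, 13 of 13 had an unadjusted p under 0.05 and 3 an adjusted p under 0.05. *Jag2*, *Notch4* and *Notch3* were thus separated from a slope of 0 only before adjustment. Of the stroma markers 3 of 6 also had an unadjusted p under 0.05 (limma), with slopes of 0.71 (*Hand2*), 0.52 (*Vim*) and -0.78 (*Lum*). Of the uterus markers 2 of 5 did, with slopes of 0.44 (*Hoxa11*) and 0.36 (*Hoxa10*), and no smooth muscle, epithelial or leukocyte marker did. A *Pecam1* slope therefore does not by itself mark a gene as vascular.

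At equal *Pecam1*, the genotype term of the same fit stayed large for *Hey1* (0.89, SE 0.14, unadjusted p = 0.00013, adjusted p = 0.087, limma) and for *Hey2* (-0.47, SE 0.17, unadjusted p = 0.024, adjusted p = 0.35, limma). It was nearer to 0 than in the fit without *Pecam1* for *Notch4* (-0.15 in place of -0.69), *Notch3* (-0.15 in place of -0.50) and *Heyl* (-0.33 in place of -0.64), and positive for *Jag2* (0.30 in place of -0.45). For *Dll4* (-0.37), *Notch2* (-0.26), *Jag1* (0.08) and *Notch1* (0.07) it changed little. None of the 10 had an adjusted p under 0.05 (0.0407% of all genes did), and 2 of 10, *Hey1* and *Hey2*, had an unadjusted p under 0.05 (11.9% of all genes did, limma). Genotype and *Pecam1* were correlated in the fit (-0.79), and the values do not say whether *Pecam1* or genotype accounts for the shared part. No library of one genotype had the *Pecam1* level of the other, so the term compares the genotypes by extending the fitted slope between them. When 1 library was left out, the value ranged from 0.71 to 0.95 for *Hey1* and from -0.57 to -0.38 for *Hey2*. It ranged from -0.592 to -0.225 for *Dll4*, from -0.46 to -0.06 for *Notch2* and from -0.28 to 0.39 for *Jag1*. The unadjusted p of *Hey2* rose above 0.05 without Wnk1f/f replicate 3 (0.051), without Wnk1d/d replicate 1 (0.12) or 4 (0.056), and with *Cdh5* in place of *Pecam1* (0.063). For *Heyl* the value was -0.61 without Wnk1d/d replicate 1, where the fit without *Pecam1* gave -0.53, and -0.07 without Wnk1d/d replicate 2, so its shift towards 0 rests on Wnk1d/d replicate 1.

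**Figure D4:**
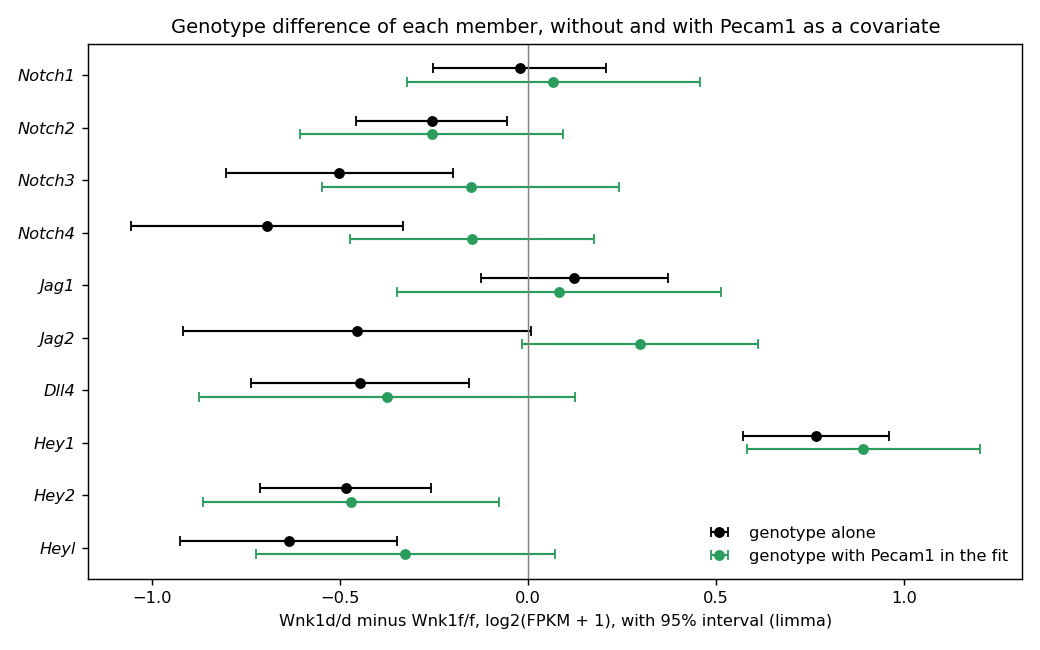
Difference between Wnk1d/d and Wnk1f/f in log2(FPKM + 1) (x axis) for each gene with its 95% interval, from limma with genotype alone (black) and with *Pecam1* in the fit (green). The intervals of *Hey1* stay above 0 and those of *Hey2* below 0 in both fits. Those of *Notch2*, *Notch3*, *Notch4*, *Dll4* and *Heyl* reach 0 once *Pecam1* is included. For *Dll4* and *Notch2* the estimate changed little and the interval widened, with SEs of 0.13 and 0.090 without *Pecam1* and 0.22 and 0.15 with it.

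As a plain ratio to *Pecam1*, *Hey1* was 9.80, 8.76, 9.20 and 7.70 FPKM per 100 FPKM of *Pecam1* in the controls and 32.7, 20.1, 30.9, 21.1 and 22.6 in Wnk1d/d uteri. Its mean was 8.87 ± 0.884 (SD, n = 4) in the controls and 25.5 ± 5.85 (SD, n = 5) in Wnk1d/d uteri (exact two-sided permutation test, p = 0.0079). *Hey1* was already higher and *Pecam1* already lower in every Wnk1d/d library. The separation of their ratio was therefore fixed beforehand and adds no further result. The ratios of *Notch4* (7.67 and 6.78, exact permutation p = 0.087), *Notch3* (8.37 and 8.81, exact permutation p = 0.63), *Heyl* (6.27 and 5.82, exact permutation p = 0.48), *Hey2* (2.36 and 2.23, exact permutation p = 0.75), *Jag2* (14.1 and 15.9, exact permutation p = 0.20) and *Dll4* (16.9 and 19.8, exact permutation p = 0.40) overlapped between the genotypes, as did that of *Notch2* (1.35 times higher in Wnk1d/d, exact permutation p = 0.11). Those of *Notch1* (10.9 and 17.4, exact permutation p = 0.016) and *Jag1* (15.9 and 28.9, exact permutation p = 0.024) were higher in every Wnk1d/d library than in any control, like that of *Hey1*, while their FPKM had not passed the test. *Hey2* thus gave a different picture in the ratio than in the fit, because the ratio assumes that a gene moves in proportion to *Pecam1* and the fitted slope of *Hey2* was 0.02.

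The other genes of the pathway were taken from a list of 45, all in the table, of which 40 were tested. *Dll3*, *Dlk1*, *Dlk2*, *Hes5* and *Aph1c* were below the filter. By the rule above 3 of 40 were called, 1 higher and 2 lower, beside 10.3% of all genes, and 8 of 40 had an adjusted p under 0.05, 1 higher and 7 lower, beside 22.1%. The median log2 fold change was -0.05 over these 40 genes, -0.45 over the 10 genes above and 0.00 over all genes tested.

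The 3 Fringe genes encode glycosyltransferases that add sugar to Notch receptors and change which ligands they answer to, and they moved apart. *Mfng* was 17.9, 18.8, 20.1 and 20.8 FPKM in the controls and 6.47, 14.1, 9.36, 11.7 and 12.2 FPKM in Wnk1d/d uteri (-0.83 on the log2 scale, SE 0.18, limma adjusted p = 0.014). *Rfng* was 27.7, 36.1, 33.0 and 26.2 FPKM in the controls and 55.9, 37.3, 65.5, 50.2 and 49.8 FPKM in Wnk1d/d uteri (0.72 on the log2 scale, SE 0.16, limma adjusted p = 0.014). Both were called and neither overlapped between genotypes, and Wnk1d/d replicate 2 lay nearest to the controls for both. *Lfng* fell from 17.7 ± 3.32 to 12.3 ± 1.39 FPKM (log2 fold change -0.49, limma adjusted p = 0.027), short of the 1.5-fold criterion. *Mfng* had a *Pecam1* slope of 1.04 (SE 0.11, limma adjusted p = 0.032), and was the only gene of either list to pass. This rested on the full set of libraries. Without Wnk1f/f replicate 1, 2 or 3, or without Wnk1d/d replicate 1, 3, 4 or 5, no tested gene passed, *Mfng* included. The same held with *Cdh5* in place of *Pecam1*.

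Downstream of the receptors, *Maml3*, a Mastermind coactivator, was called lower with 6.01, 3.37, 3.51 and 5.71 FPKM in the controls and 2.05, 3.25, 1.92, 2.06 and 1.94 FPKM in Wnk1d/d uteri (-0.78 on the log2 scale, SE 0.18, limma adjusted p = 0.017). The controls of *Maml3* fell into a higher and a lower pair, and the lower pair was close to Wnk1d/d replicate 2. *Rbpj* (log2 fold change -0.14, limma adjusted p = 0.28) and the other Notch targets *Hes1* (0.26, limma adjusted p = 0.15) and *Nrarp* (-0.30, limma adjusted p = 0.080) did not pass. Among regulators of ligand and receptor turnover, the ubiquitin ligase genes *Dtx3* (267 to 182 FPKM, limma adjusted p = 0.019), *Dtx4* (13.9 to 10.4 FPKM, limma adjusted p = 0.011), *Dtx1* (8.97 to 6.65 FPKM, limma adjusted p = 0.032) and *Mib2* (31.7 to 24.5 FPKM, limma adjusted p = 0.025) were lower by less than 1.5 times. None of the 9 tested genes for receptor cleavage, which include *Adam10*, *Adam17* and *Ncstn*, reached an adjusted p under 0.05, and their log2 fold changes lay between -0.25 and 0.04.

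**Figure D5:**
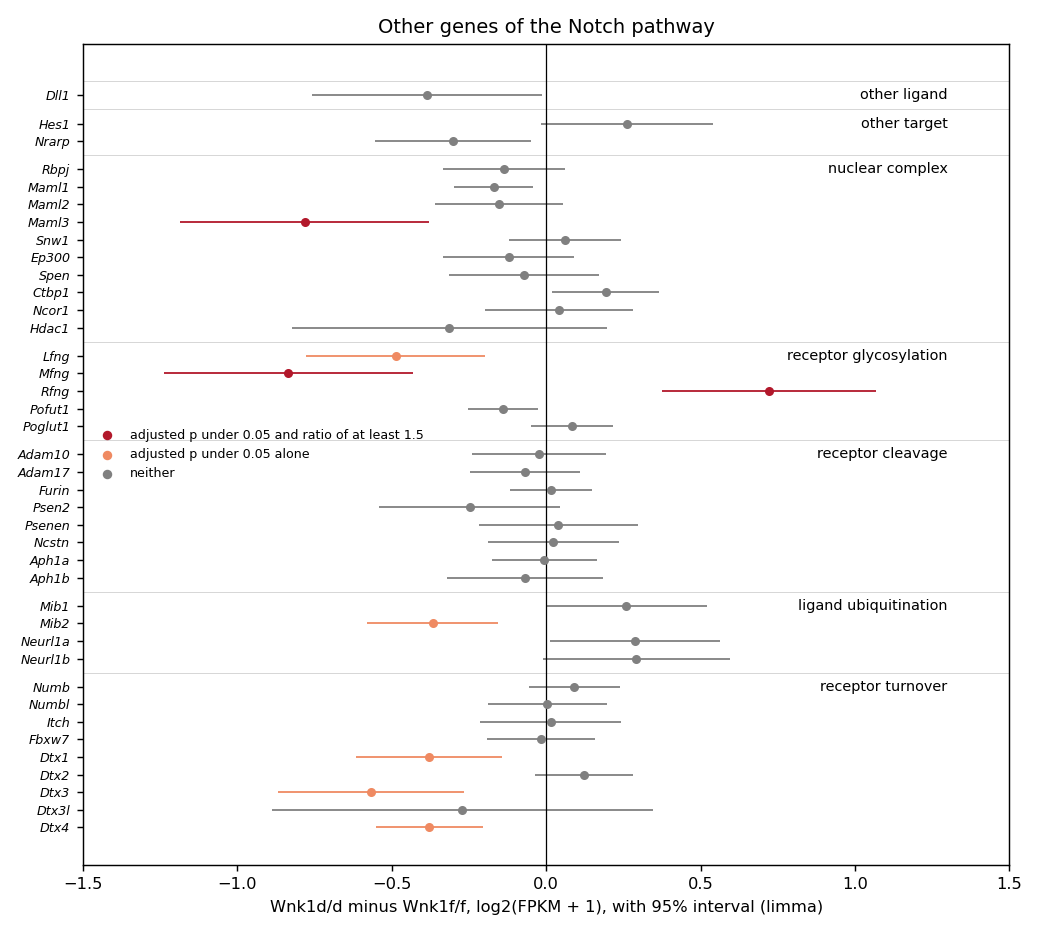
Difference between Wnk1d/d and Wnk1f/f in log2(FPKM + 1) (x axis, limma, with 95% intervals) for the other pathway genes tested, all but 1 of the 40, grouped by role. *Maml3* and *Mfng* (lower) and *Rfng* (higher) are the 3 genes past both thresholds, and the receptor cleavage genes shown lie near 0.

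Promoters were read for the letters that RBPJ binds, because the HEY genes are direct targets of the Notch complex. The window ran from 250 bases before to 50 bases after each start in RefSeq (GRCm38.p6), and 8 of the 10 genes were matched, all but *Hey1* and *Heyl*. GTGGGAA, on either strand, was present in 1 of the 8, *Hey2*, and in 6.38% of 32851 promoters. The 36 matched pathway genes have 49 promoters, and 5 of these genes held it in any of theirs. That count is by gene, so it cannot be set directly against the percentage by promoter. The E-box CACGTG, a site for HES and HEY type proteins and other helix-loop-helix factors, was in 0 of the 8 and in 7.15% of all promoters. Of the 36 pathway genes 5 held it, counted by gene as before. The *Hey2* and *Lfng* stretches are shown because they are the promoters of genes with an adjusted p under 0.05 that hold GTGGGAA. It begins in *Hey2* at -207 on the opposite strand and at -4 across the start, and in *Lfng* at -109, where it overlaps the E-box at -112. Capitals mark GTGGGAA or its reverse complement TTCCCAC, 5′ to 3′ on the strand of the gene, for *Hey2* at chr10:30842781-30843033 (minus strand) and for *Lfng* at chr5:140607091-140607340 (plus strand). Such a match is a description of the letters only.
Hey2: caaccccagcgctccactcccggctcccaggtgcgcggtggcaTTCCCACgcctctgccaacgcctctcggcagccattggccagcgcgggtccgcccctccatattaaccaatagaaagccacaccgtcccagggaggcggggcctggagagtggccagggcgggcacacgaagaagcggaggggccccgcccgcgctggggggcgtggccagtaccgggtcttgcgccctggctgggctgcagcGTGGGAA
Lfng: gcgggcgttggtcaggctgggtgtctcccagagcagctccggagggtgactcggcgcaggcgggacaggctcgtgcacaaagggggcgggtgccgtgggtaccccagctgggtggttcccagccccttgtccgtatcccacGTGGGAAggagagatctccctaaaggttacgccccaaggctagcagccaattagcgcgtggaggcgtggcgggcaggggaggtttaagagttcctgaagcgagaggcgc
Between genotypes, *Hey2* fell by 0.48 and *Lfng* by 0.49 on the log2(FPKM + 1) scale, as given above. Their ratios of means were 0.583 and 0.691, since that scale understates the change of a gene as low as *Hey2*.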

How the data were processed

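Whole uterus RNA of 9 mice was sequenced as paired 75 nt reads on an Illumina HiSeq from TruSeq libraries, 1 per mouse. The authors kept reads with an average quality above 20, aligned them to mm10 with TopHat2 2.0.4 and computed FPKM with Cufflinks (2.0.2 in the submitters' processing notes, 2.2 in the methods). The deposited FPKM table holds 31274 entries by gene symbol, with 1 column per mouse and no replicates pooled. The gene annotation is not given in the sources used here. Groups came from the genotype labels, and mice of a genotype are separate animals. Replicate numbers here follow the sample titles and can differ from the numbers in the column names. FPKM keeps no fragment counts, so absolute depth is unknown and no counting intervals are given.

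Values were set on a log2(FPKM + 1) scale as deposited. Genes whose mean exceeded 1 FPKM in at least 1 genotype (14728) were fitted with limma 3.58.1 (R 4.3.3, trend, unpaired) and adjusted by the Benjamini-Hochberg method. A call needed a 1.5-fold ratio of means besides an adjusted p below 0.05. A second fit added *Pecam1* on the same scale as a covariate (14727 genes). For shares and ratios, the 126 ways to divide the libraries into 4 and 5 gave exact two-sided permutation p values (Python 3.11.15, NumPy 2.4.6, pandas 2.3.3, plots with matplotlib 3.10.9).

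The 10 genes, the pathway list and the marker lists were chosen with earlier results of these data known. All 10 genes were named, as were pathway genes with an adjusted p under 0.05, *Pecam1*, *Cdh5* and called genes of the mural and arterial lists. *Rgs5*, *Kcnj8*, *Cspg4*, *Gja4*, *Gja5*, *Efnb2*, *Sox17*, *Hand2*, *Vim*, *Lum*, *Hoxa10*, *Hoxa11* and the other pathway genes given by name were chosen after their values were seen. *Ccl21a* of the lymphatic list was not matched, and of the 2 lymphatic markers tested none was called, nor was any of 6 epithelial, 6 leukocyte or 6 liver markers. Of 6 stroma markers 2 were called higher and 1 lower, and of 5 uterus markers 1 lower.

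Alternatives were pseudocounts of 0.1 and 0.01, no filter on low values or one at 5 FPKM, scaling to the median, quantile normalization, a fit that was robust, weighted by library or lacked the trend, other ratio criteria, a replicate block, and leaving out each library. Gene coordinates come from GENCODE M21 on mm10, matched by symbol, and promoters from RefSeq. Values of 1 pathway gene are not reported here, although counts over the list include it.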

Additional observations from a re-analysis of the deposited data

Results flagged for a closer look

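In 22 groups of 4 or 5 libraries (each of the 10 genes and *Pecam1* in each genotype), 1 value stood apart by Dixon's 95% criterion. *Jag1* was 16.59 FPKM in Wnk1f/f replicate 4 against 14.08 to 14.22 FPKM in the other controls, a gap of 0.944 of the whole range, past the limit for 4 libraries. Chance alone gives about 1 such value in 20 groups. The same library carried the liver markers (157 FPKM summed), and the part of these in the *Jag1* value was not tested. Without it the log2 fold change of *Jag1* kept its sign and did not pass the test.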

How the results depend on the processing

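*Hey1*, *Heyl* and *Notch4* were called in 18 of 18 other fits at the same thresholds without a replicate block and *Hey2* in 17 of 17. *Notch3* kept an adjusted p under 0.05 in 12 of 18 and *Dll4* in 11 of 18. Leaving out 1 library gave 4 to 6 called genes of the 10, 3 to 5 of the pathway list and 4 to 12 endothelial markers. The endothelial count was 5 without Wnk1f/f replicate 1 or 2, 6 without 3 and 4 without 4, and 5 without Wnk1d/d replicate 1 or 3. The pathway count was 5 without Wnk1f/f replicate 1 or Wnk1d/d replicate 2. Without the ratio criterion, 8 pathway genes were counted. A ratio of at least 2 left 0 of the 10 genes, 1 pathway gene and 1 endothelial marker. With quantile normalization 1 gene, *Jag2*, had a *Pecam1* slope with an adjusted p under 0.05 (0.041, limma). The log2 fold change of *Notch1*, near 0, turned to 0.0023 with quantile normalization and ranged from -0.069 to 0.047 when 1 library was left out, above 0 without Wnk1f/f replicate 2 (0.015) or 3 (0.017) or Wnk1d/d replicate 4 (0.047). With 1 library left out, the difference in the share of *Notch3* ranged from -4.45 to -2.27 percentage points, of *Notch4* from -6.17 to -4.34 and of *Dll4* from -7.23 to -4.62, and the permutation p crossed 0.05 for *Notch3* and *Notch4* without Wnk1f/f replicate 1 and for *Dll4* without Wnk1d/d replicate 3. The cause of these changes was not tested.

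Replicate numbers are shared by different mice and did not pair them: same-numbered mice had correlations of -0.09, -0.00, 0.02 and -0.27 in their deviations, and none correlated best with its own number. With the numbers as a replicate block (8 libraries), 1 of the 10 genes was called, *Hey1* (limma adjusted p = 0.041), with 0 pathway genes and 1 endothelial marker. The adjusted p was then 0.052 for *Heyl*, 0.087 for *Notch4* and 0.10 for *Hey2*. Precision is limited by 4 and 5 mice, and depth cannot be read from FPKM.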
